A study of Mus musculus with 3 samples.

Results

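Fatty acid oxidation and ketone body formation were described through 37 genes, which encode enzymes, carriers and regulators of the mitochondrial and peroxisomal routes. A gene was a member when the array's own gene name matched its symbol, with Eci1 printed under the older name Dci and Eci2 under Peci. All 37 of 37 were found, on 74 of 43020 spots and 47 of 39429 probes, among 31870 genes in all. Hepatocyte RNA of male C57BL/6 mice was measured on 3 one-colour (Cy3) microarrays, 1 array per group. The anti-VLA-4 group ate a high-fat diet (HFD) for 16 weeks beginning at 6 weeks of age, and was injected 2 times a week with an antibody to VLA-4, an integrin of leukocytes, during the last 6 weeks. The HFD-IgG group had the same diet and was injected on the same schedule with IgG. The standard-diet group was kept alongside for those 16 weeks, and the labels list no injection for it, so the diet and the injection of IgG differ together between these groups. All mice were 22 weeks old, were fasted overnight, and gave hepatocytes by collagenase digestion of the liver. The number of mice behind each array is not given in the labels.

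Hepatocytes burn fatty acids by first joining them to coenzyme A. Long chains then enter mitochondria as carnitine esters and are shortened by a repeating spiral of a dehydrogenase, a hydratase, a second dehydrogenase and a thiolase, while very long and branched chains are first shortened in peroxisomes. During a fast the acetyl-CoA made in this way feeds the formation of ketone bodies, and the fatty-acid-sensing nuclear receptor PPAR-alpha raises the transcription of many of these genes in mouse liver.

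With 1 array per group no difference below has a replicate check or a p-value, and the number of arrays limits the precision. A level is the processed spot signal divided by the 75th percentile of the signals on that array, so a level of 1 is the array's own 75th percentile. Differences are log2 ratios of levels, with the error that the scanner software reports for the signals, which was 0.20 to 0.22 for the members in HFD-IgG over standard diet. That error covers the spots and leaves out the mice. All 74 member spots were well above background on all 3 arrays, and 33 of 37 members had a level above 1 on each of them. The exceptions were Acsl3, Cpt1b, Crat and Pdk4. Levels of different genes come from different probes and were not set against each other.

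Sequences are given for the members with the clearest differences, or for which the choice of probe matters, so that a value can be traced to the transcript it reports. A probe on this platform is 60 bases long, and its first 30 bases are printed in the sense of the transcript. Ehhadh, the member furthest from equality, was read on chr16:21761914-21761973 (minus strand, build mm9) near the end of its transcript, and Cpt1b on chr15:89246836-89246895 and chr15:89247106-89247165 (minus strand, mm9). Acaa1a at chr9:119259353-119259412 (plus strand, mm9) and Acaa1b at chr9:119057326-119057385 (minus strand, mm9) are shown because they are close copies.
Ehhadh probe: atggccagatttcaggaatgtgttttctat
Cpt1b probe, brighter: ttggagagcgctgtccaacctctcatgtgc
Cpt1b probe, other: tgctcctctagggcccccgctggaggtggg
Acaa1a probe: ccctggttgcaaagccatttgtacctttga
Acaa1b probe: tctgcgtgggacactcagcagtggaggagt

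In the HFD-IgG array over the standard-diet array, most members were lower, by an amount that depended on the processing, and Ehhadh was the lowest. Of 37 members, 32 were below 0 and 5 above, with a median log2 difference of -0.30, and 30 of 37 kept their sign across 4 ways of scaling and background correction. At least 2-fold differences were seen for 2 members, Ehhadh and Cpt1b, both lower, and for 0 in the other direction. Over all 22001 genes compared, 2.41% were at least 2-fold lower, 20.4% at least 2-fold higher and 46.4% below 0, with a median of 0.04. Most members are bright, so the 8647 genes with a level above 1 on at least 1 of the compared arrays are the closer comparison: 1.93% of them were at least 2-fold lower, 4.27% at least 2-fold higher and 62.6% below 0, with a median of -0.10. Read against these shares, the 2 of 37 members are a count near the background with the signals as the scanner software processed them. With normexp background correction the members' median was -0.85, where that of all genes was 0.46, and 14 members were at least 2-fold lower and 1 higher, against 3.93% and 40.4% of all genes. The 14 were Ehhadh, Acad11, Acadl, Acadvl, Acadm, Acsl4, Acsl1, Cpt1a, Cpt2, Slc25a20, Pex11a, Hadhb, Eci2 and Etfdh, so both the count and the size of the shift depend on this choice. Normexp also started from the raw spot signals and not from the processed ones, so its shift is not that of background correction alone. No share of the brighter genes was taken with normexp. Genes outside the members moved as well. The median of 35 other peroxisomal genes went from -0.12 to -0.66 with normexp. That of 16 other mitochondrial oxidation genes went from 0.20 to -0.36, and that of 9 other ketone body genes from -0.10 to 0.24. At 1.5-fold, 6 members were lower and 0 higher, against 7.78% lower and 27.9% higher over all genes and 7.22% lower and 7.03% higher among the brighter ones. The difference exceeded its scanner error for 26 members, 23 lower and 3 higher, and lay within it for 11.

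**Figure D1:**
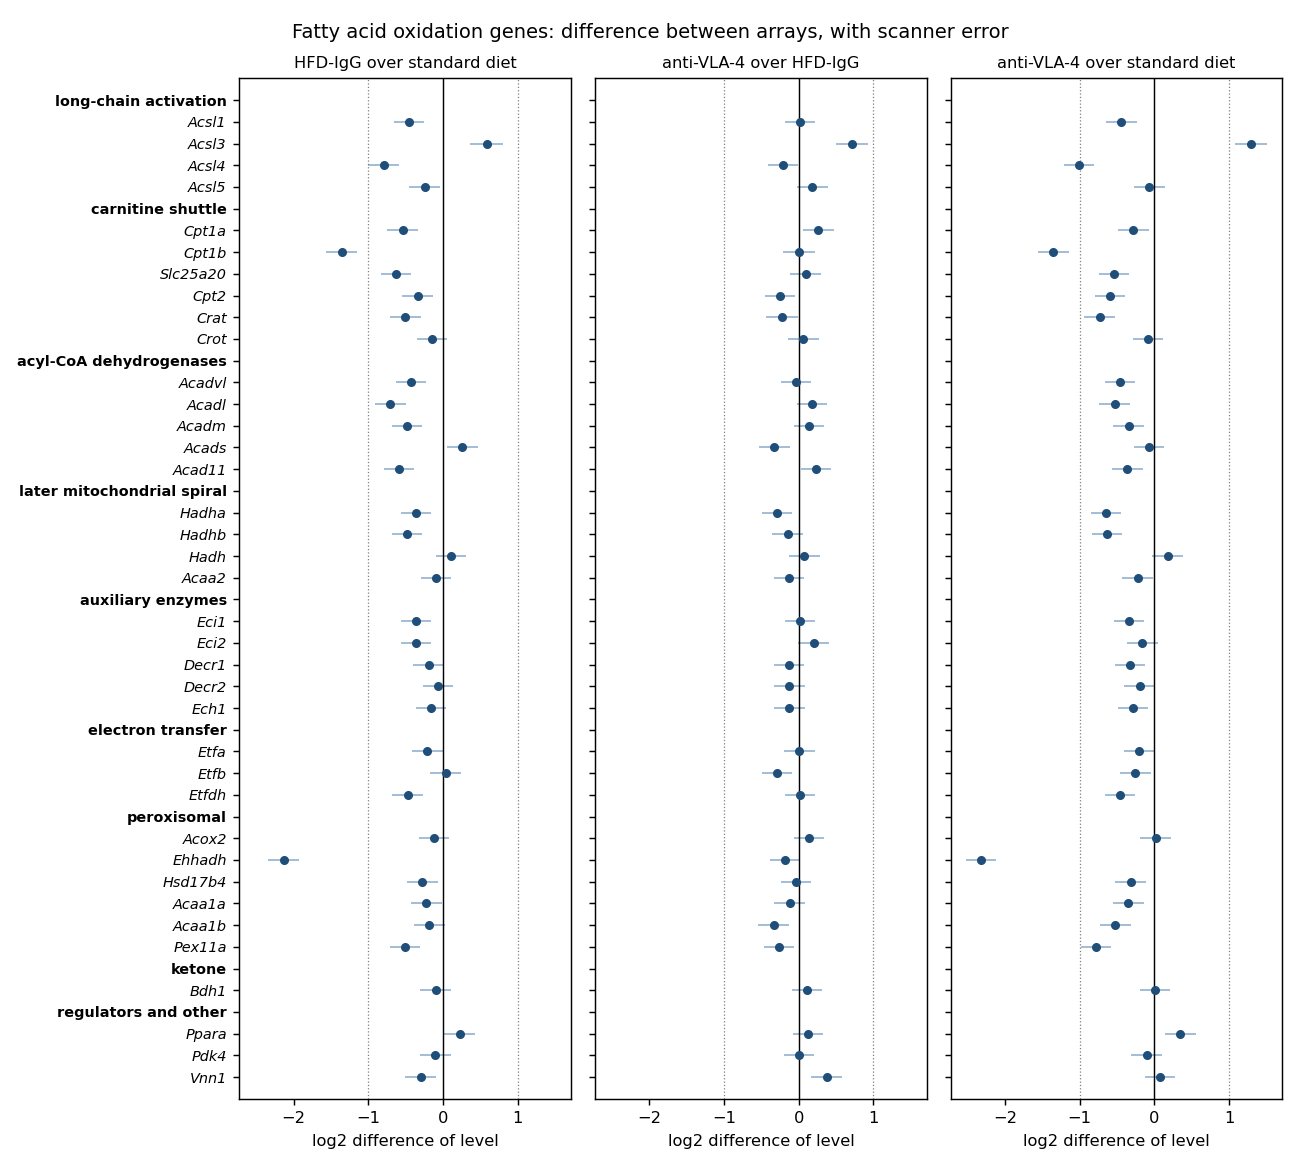
Log2 difference of level for each of the 37 members, grouped by role, in HFD-IgG over standard diet, anti-VLA-4 over HFD-IgG and anti-VLA-4 over standard diet. Points are single arrays compared and bars are the scanner's error, not a spread between mice. Ehhadh lies at -2.13 and -2.32 in the comparisons with standard diet and at -0.18 in anti-VLA-4 over HFD-IgG, which turned to 0.04 with normexp background correction.

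Activation of long chains is the work of the acyl-CoA synthetases of the Acsl family. Acsl1, the main hepatic form, had a level of 160 on the anti-VLA-4 array and 157 on the HFD-IgG array, against 216 on the standard-diet array. Its log2 difference was -0.46 in HFD-IgG over standard diet and -0.44 in anti-VLA-4 over standard diet, and its second probe pointed the same way with -0.63 and -0.66. Acsl4, which prefers arachidonate, had 2.73 on the anti-VLA-4 array and 3.15 on the HFD-IgG array, against 5.48 on the standard-diet array. It was thus lower on both high-fat arrays, with -1.01 in anti-VLA-4 over standard diet, just past 2-fold, and -0.80 in HFD-IgG over standard diet. With quantile scaling the first value was -0.95, below 2-fold. Acsl5 stood at 15.2 on the anti-VLA-4 array and 13.4 on the HFD-IgG array, against 15.9 on the standard-diet array, a spread close to the scanner error. Acsl3, a dim member, read 0.28 on the anti-VLA-4 array and 0.17 on the HFD-IgG array, against 0.11 on the standard-diet array. It was the 1 member at least 2-fold higher in anti-VLA-4 over standard diet, at 1.30. The smaller steps of Acsl3 turned with the processing: 0.58 in HFD-IgG over standard diet became -0.04 with quantile scaling, and 0.71 in anti-VLA-4 over HFD-IgG became -0.05 with normexp background correction.

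The carnitine shuttle carries activated chains into the mitochondrial matrix, and all 6 of its members were below 0 in HFD-IgG over standard diet, with a median of -0.52, though Crat turned to 0.30 with normexp. Cpt1a, the liver form of the outer carnitine palmitoyltransferase and the controlled entry step, averaged 38.6 on the anti-VLA-4 array and 32.2 on the HFD-IgG array, against 46.9 on the standard-diet array. Its brighter probe is printed on 10 spots per array, which read 36.3 to 40.3 on the anti-VLA-4 array and 28.8 to 34.9 on the HFD-IgG array, against 44.4 to 48.9 on the standard-diet array. No spot of Cpt1a on one array overlapped those of another, with the anti-VLA-4 array between the other 2. These spots share 1 labelled RNA per array, so their agreement speaks of the array and not of the mice. How many other probes with repeated spots separate in this way was not counted. The log2 difference of Cpt1a was -0.54 in HFD-IgG over standard diet, 0.26 in anti-VLA-4 over HFD-IgG, with -0.28 in anti-VLA-4 over standard diet. The other Cpt1a probe, on 1 spot, read 1.97 on the anti-VLA-4 array and 1.95 on the HFD-IgG array, against 2.54 on the standard-diet array. It was likewise lower on both high-fat arrays, at -0.38 in HFD-IgG over standard diet, but at 0.01 it showed no step between the high-fat arrays.

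**Figure D2:**
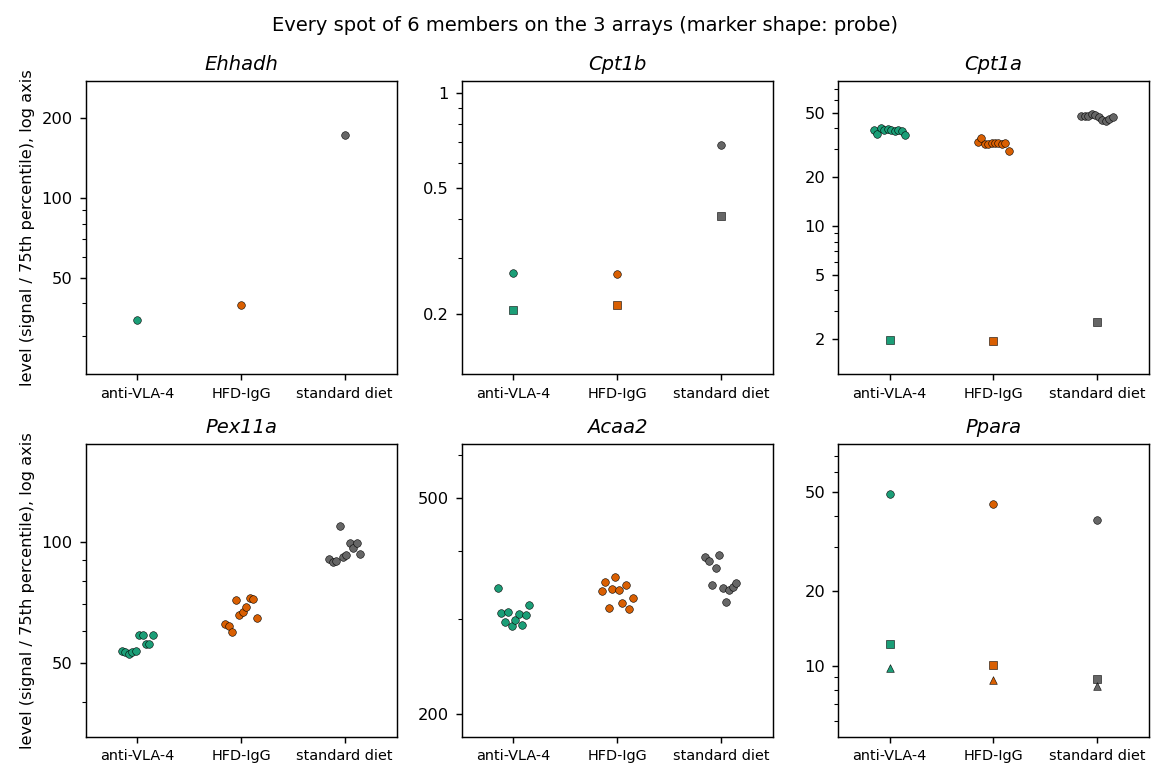
Level of every spot of selected members on the anti-VLA-4, HFD-IgG and standard-diet arrays, with levels on log axes. The 10 Cpt1a spots and the 10 Pex11a spots of each array are separate from those of the others, while the 10 Acaa2 spots overlap across the 3 arrays. The share of all repeated probes that separate in this way was not counted.

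Cpt1b, the muscle form of the same enzyme, was dim, with 0.27 on the anti-VLA-4 array and 0.27 on the HFD-IgG array, against 0.68 on the standard-diet array. The high-fat arrays thus shared a value that was 2.56-fold lower in HFD-IgG and 2.55-fold lower in anti-VLA-4 than in standard diet. The other Cpt1b probe read 0.21 on the anti-VLA-4 array and 0.21 on the HFD-IgG array, against 0.41 on the standard-diet array, again lower on both high-fat arrays. With normexp correction the brighter probe differed by only -0.41 in HFD-IgG over standard diet and -0.61 in anti-VLA-4 over standard diet, below 2-fold. The summed level of 4 heart and muscle markers was 0.17 on the anti-VLA-4 array and 0.38 on the HFD-IgG array, against 0.09 on the standard-diet array. Of these markers, 2, 2 and 3 in that order had no signal well above background, and a part of muscle RNA in the Cpt1b difference was not tested.

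Slc25a20, the carrier that exchanges acylcarnitine for carnitine across the inner membrane, had 5.45 on the anti-VLA-4 array and 5.10 on the HFD-IgG array, against 7.91 on the standard-diet array. Cpt2, which returns the chain to coenzyme A inside, had 32.4 on the anti-VLA-4 array and 38.5 on the HFD-IgG array, against 48.8 on the standard-diet array. Slc25a20 differed by -0.63 in HFD-IgG over standard diet and Cpt2 by -0.34. Both were lower on the high-fat arrays, but the antibody comparison, anti-VLA-4 against HFD-IgG, gave 0.09 for Slc25a20 and -0.25 for Cpt2, and the Cpt2 value turned to 0.13 with normexp. Crat, the acetyl transferase, whose direction in both comparisons with standard diet turned with normexp, had 0.39 on the anti-VLA-4 array and 0.45 on the HFD-IgG array, against 0.64 on the standard-diet array. Crot, the peroxisomal octanoyl transferase, had 78.8 on the anti-VLA-4 array and 75.6 on the HFD-IgG array, against 83.8 on the standard-diet array. These levels differed little, but with normexp Crot was at -0.79 in HFD-IgG over standard diet and 0.37 in anti-VLA-4 over HFD-IgG.

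The acyl-CoA dehydrogenases open the spiral, each for its own chain length. Acadl, the long-chain form, had 9.51 on the anti-VLA-4 array and 8.43 on the HFD-IgG array, against 13.8 on the standard-diet array, a log2 difference of -0.71 in HFD-IgG over standard diet. Acad11, which acts on longer chains, had 91.5 on the anti-VLA-4 array and 77.9 on the HFD-IgG array, against 117 on the standard-diet array. Acadm, the medium-chain form, had 105 on the anti-VLA-4 array and 94.99 on the HFD-IgG array, against 133 on the standard-diet array. In all of these 3 the HFD-IgG array was lowest and the anti-VLA-4 array lay between, by a step of 0.14 to 0.23 that is near the scanner error. Acadvl, the very-long-chain form, had 140 on the anti-VLA-4 array and 144 on the HFD-IgG array, against 193 on the standard-diet array. Acads, the short-chain form, went the other way in HFD-IgG over standard diet at 0.26, with -0.31 under normexp. Its level was 3.74 on the anti-VLA-4 array and 4.69 on the HFD-IgG array, against 3.92 on the standard-diet array.

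Later steps of the spiral had a median of -0.23 over 4 members in HFD-IgG over standard diet. Hadha and Hadhb are the alpha and beta subunits of the trifunctional protein, which completes the spiral for long chains. Hadha had 4.44 on the anti-VLA-4 array and 5.43 on the HFD-IgG array, against 6.97 on the standard-diet array. Hadhb had 48.8 on the anti-VLA-4 array and 54.1 on the HFD-IgG array, against 75.6 on the standard-diet array. Both subunits were lowest on the anti-VLA-4 array, with -0.65 for Hadha and -0.63 for Hadhb in anti-VLA-4 over standard diet. The step from HFD-IgG to anti-VLA-4 was -0.29 for Hadha and -0.15 for Hadhb, the latter within its scanner error. With normexp these steps were -0.10 and -0.02. Hadh, the hydroxyacyl-CoA dehydrogenase of shorter chains, had 44.6 on the anti-VLA-4 array and 42.4 on the HFD-IgG array, against 39.4 on the standard-diet array, and its difference of 0.10 in HFD-IgG over standard diet turned to -0.66 with normexp. Acaa2, the mitochondrial thiolase, read 291 to 341 on its 10 spots of the anti-VLA-4 array, 312 to 358 on the HFD-IgG array, against 322 to 393 on the standard-diet array. The Acaa2 spots overlapped among all 3 arrays.

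Auxiliary enzymes prepare unsaturated chains, and electron transfer proteins pass the dehydrogenases' electrons to the respiratory chain. The 5 auxiliary enzymes lay between -0.36 and -0.07 in HFD-IgG over standard diet, with Eci1 and Eci2, the enoyl-CoA isomerases, at the lower end. Eci2 had 88.0 on the anti-VLA-4 array and 76.6 on the HFD-IgG array, against 98.4 on the standard-diet array. Decr2, the peroxisomal dienoyl-CoA reductase, was at the upper end with 21.5 on the anti-VLA-4 array and 23.5 on the HFD-IgG array, against 24.7 on the standard-diet array. Decr1, its mitochondrial counterpart, and Ech1, a dienoyl-CoA isomerase, differed by -0.20 and -0.16. Etfdh, the oxidoreductase that hands electrons to ubiquinone, had 54.8 on the anti-VLA-4 array and 54.2 on the HFD-IgG array, against 75.4 on the standard-diet array, a log2 difference of -0.48 in HFD-IgG over standard diet. Its electron donors, the flavoprotein subunits Etfa and Etfb, differed by -0.21 and 0.03 in that comparison, and the Etfb value turned to -0.67 with normexp.

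The peroxisomal members ran from -2.13 to -0.12 in HFD-IgG over standard diet, and all 6 were below 0. Ehhadh, the bifunctional enzyme that hydrates and then dehydrogenates the enoyl-CoA of the peroxisomal route, had a level of 34.6 on the anti-VLA-4 array and 39.3 on the HFD-IgG array, against 172 on the standard-diet array. Both high-fat arrays were therefore low and the standard-diet array high, and Ehhadh was 4.99-fold lower in anti-VLA-4 and 4.39-fold lower in HFD-IgG than in standard diet. Only 68 of 22001 genes compared had a lower log2 difference in HFD-IgG over standard diet. In anti-VLA-4 over standard diet there were 86 such genes among 20334. The scanner error of these differences was 0.20. Across the processing alternatives Ehhadh stayed between -2.83 and -2.05 in HFD-IgG over standard diet.

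Other enzymes of the same route did not share a difference of that size. Hsd17b4, the second bifunctional enzyme, had 102 on the anti-VLA-4 array and 105 on the HFD-IgG array, against 128 on the standard-diet array. Acox2, the oxidase of branched chains and bile acid precursors, had 59.5 on the anti-VLA-4 array and 54.0 on the HFD-IgG array, against 58.7 on the standard-diet array. The thiolase Acaa1a had 162 on the anti-VLA-4 array and 176 on the HFD-IgG array, against 206 on the standard-diet array. Acaa1b, its close copy, had 154 on the anti-VLA-4 array and 194 on the HFD-IgG array, against 221 on the standard-diet array, and signal may be shared between the copies. Acaa1b had the lowest member difference in anti-VLA-4 over HFD-IgG, at -0.34. With normexp it was -0.05 and no longer the lowest, as Crat was at -0.25. Pex11a, a membrane protein of peroxisome proliferation, read 52.6 to 58.8 on its 10 spots of the anti-VLA-4 array, 59.8 to 72.4 on the HFD-IgG array, against 88.9 to 109 on the standard-diet array. No spots of Pex11a overlapped between arrays, and the order was standard diet highest and anti-VLA-4 lowest, with -0.51 in HFD-IgG over standard diet and -0.27 in anti-VLA-4 over HFD-IgG. With normexp these differences of Pex11a were -1.21 and -0.02, so the step between the high-fat arrays was nearly gone. For Pex11a, too, the share of other repeated probes that separate was not counted.

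Ketone body formation had 1 member, Bdh1, which interconverts acetoacetate and hydroxybutyrate. Its level was 47.0 on the anti-VLA-4 array and 43.5 on the HFD-IgG array, against 46.6 on the standard-diet array, so no difference of these levels exceeded the scanner error. With normexp the Bdh1 differences were larger, at -0.77 in HFD-IgG over standard diet and 0.40 in anti-VLA-4 over HFD-IgG, with -0.38 in anti-VLA-4 over standard diet. Among regulators, Ppara had 48.9 on the anti-VLA-4 array and 44.8 on the HFD-IgG array, against 38.5 on the standard-diet array. It was thus slightly higher on the high-fat arrays, and its 3 probes pointed the same way in every comparison, but the 0.22 in HFD-IgG over standard diet turned to -0.47 with normexp. Pdk4, the kinase that restrains pyruvate dehydrogenase, was level at 0.68 on the anti-VLA-4 array and 0.68 on the HFD-IgG array, against 0.73 on the standard-diet array. Vnn1, a pantetheinase of the liver, had 16.2 on the anti-VLA-4 array and 12.5 on the HFD-IgG array, against 15.4 on the standard-diet array. Its log2 difference in anti-VLA-4 over HFD-IgG was 0.37 and followed that of Acsl3 as the next highest among members.

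In the anti-VLA-4 array over the HFD-IgG array the members were nearly level. Differences ran from -0.34 for Acaa1b to 0.71 for Acsl3, and 20 members were above 0 and 17 below, where 55.6% of all genes and 50.7% of the brighter ones were below 0. At least 2-fold differences were seen for 0 of 37 members in either direction, against 1.9% of 22589 genes at least 2-fold higher and 16.5% at least 2-fold lower. For the 8562 brighter genes these shares were 0.806% and 1.3%, so a count of 0 is near the background. At 1.5-fold only Acsl3 differed, 1 member higher and 0 lower, against 7.11% higher and 23.3% lower over all genes and 3.9% higher and 3.2% lower among the brighter ones. The scanner error was exceeded for 12 members, 4 higher and 8 lower. Direction was unsure in this comparison: only 22 of 37 members kept their sign across 4 scalings and background corrections, and all probes ran the same way for 4 of the 8 members with several. Array slides differed as well: the HFD-IgG and standard-diet arrays share one and the anti-VLA-4 array has its own, so the effects of slide and antibody cannot be told apart in either comparison that uses it.

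In the anti-VLA-4 array over the standard-diet array, 31 members were below 0 and 6 above, with a median of -0.33. At least 2-fold lower were Ehhadh, Cpt1b and Acsl4, and at least 2-fold higher was Acsl3. With normexp the members' median was -0.78, where that of all genes was 0.27, and 6 were at least 2-fold lower: Ehhadh, Acsl4, Pex11a, Hadhb, Hadha and Acadvl, without Cpt1b at -0.61. Acsl3 stayed at least 2-fold higher, at 1.23. With normexp 2.08% of all genes were at least 2-fold lower and 30.1% at least 2-fold higher, and no share of the brighter genes was taken. With the signals as the scanner software processed them, 3.39% of the 20334 genes compared were at least 2-fold lower, 7.99% at least 2-fold higher and 49.3% below 0. For the 8575 brighter genes the shares were 1.55%, 3.34% and 61.5%. At 1.5-fold, 8 members were lower and 1 higher, against 9.42% lower and 16.3% higher over all genes and 7.07% lower and 7.6% higher among the brighter ones. This comparison shares its standard-diet array with HFD-IgG over standard diet, so the values of both are not independent.

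**Figure D3:**
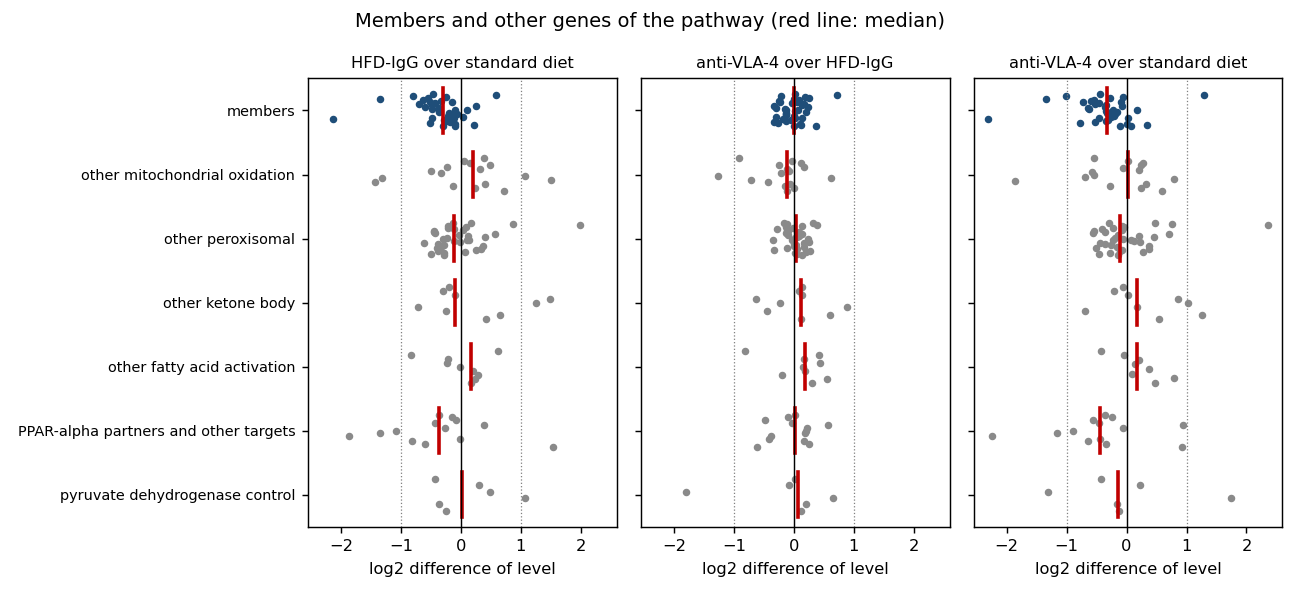
Log2 differences of the genes in 6 wider lists of the pathway, in HFD-IgG over standard diet, anti-VLA-4 over HFD-IgG and anti-VLA-4 over standard diet. Each point is a gene, and Acot1 at -1.87 and -2.24 and Abcd2 at 1.98 and 2.37 lie far from 0 in the comparisons with standard diet.

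Wider lists of the pathway, outside the 37 members, were read the same way, and their counts stand beside the 20.4% of all genes at least 2-fold higher and 2.41% at least 2-fold lower in HFD-IgG over standard diet. Of 13 partners and other targets of PPAR-alpha, 3 were at least 2-fold lower and 1 higher in HFD-IgG over standard diet, with a median of -0.37. Acot1, a thioesterase that frees fatty acids from coenzyme A, had 23.1 on the anti-VLA-4 array and 29.97 on the HFD-IgG array, against 110 on the standard-diet array. Cyp4a14, a fatty acid omega-hydroxylase, had 333 on the anti-VLA-4 array and 292 on the HFD-IgG array, against 745 on the standard-diet array, and Cyp4a10 was 2.12-fold lower in HFD-IgG than in standard diet. Acot1 and the Cyp4a genes have close copies, so their signal is uncertain between them. These were low on both high-fat arrays, as Ehhadh was. G0s2, an inhibitor of lipolysis, ran the other way, 2.91-fold higher in HFD-IgG than in standard diet.

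Among 35 other peroxisomal genes, 1 was at least 2-fold higher and 0 were lower in HFD-IgG over standard diet, with a median of -0.12. Abcd2, a transporter of very long chains into peroxisomes, was dim with 0.37 on the anti-VLA-4 array and 0.28 on the HFD-IgG array, against 0.07 on the standard-diet array. Of 16 other genes of mitochondrial oxidation, 2 were at least 2-fold higher and 2 lower in HFD-IgG over standard diet. Slc22a5, the carnitine importer of the cell surface, had 2.03 on the anti-VLA-4 array and 1.32 on the HFD-IgG array, against 3.28 on the standard-diet array. Acot2, a mitochondrial thioesterase close to Acot1 in sequence, was 2.69-fold lower in HFD-IgG than in standard diet. Ucp2, an inner-membrane carrier, was 2.83-fold higher, and Cpt1c, the brain form, had no standard-diet signal well above background and was at least 2.10-fold higher in HFD-IgG, a value that went to 0.00 on the log2 scale with quantile scaling.

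Of 9 other ketone body genes, Oxct1 and Bdh2 were at least 2-fold higher in HFD-IgG over standard diet and 0 were lower, a count of 2 of 9 that is near the 20.4% of all genes. Oxct1, which uses ketone bodies outside hepatocytes, had 0.19 on the anti-VLA-4 array and 0.30 on the HFD-IgG array, against 0.11 on the standard-diet array. Bdh2 had 9.57 on the anti-VLA-4 array and 11.2 on the HFD-IgG array, against 4.70 on the standard-diet array. Slc16a6, a ketone body transporter, was 2.38-fold higher in anti-VLA-4 than in standard diet. Of 9 other activating enzymes compared, 0 were at least 2-fold different in either direction. Of 6 genes of pyruvate dehydrogenase control, Pdp2, a phosphatase that opposes kinases such as Pdk4, was 2.11-fold higher in HFD-IgG than in standard diet and 3.33-fold higher in anti-VLA-4 than in standard diet. With normexp, Acot2 at -0.82, Bdh2 at 0.72, G0s2 at 0.93 and Pdp2 at 0.61 on the log2 scale were below 2-fold in HFD-IgG over standard diet, as was Slc16a6 at 0.76 in anti-VLA-4 over standard diet, and Cyp4a10 was at -0.97 with quantile scaling.

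In anti-VLA-4 over HFD-IgG, 0 genes of the wider peroxisomal, ketone body, activation and PPAR-alpha lists were at least 2-fold different, beside 1.9% of all genes higher and 16.5% lower. Cpt1c, at least 2.41-fold lower, and Pdp1, a second phosphatase of pyruvate dehydrogenase at least 3.49-fold lower, were past that size in the remaining lists, both against an anti-VLA-4 signal not well above background. With normexp these 2 stood at -0.45 and -0.50 on the log2 scale. In anti-VLA-4 over standard diet, beside 7.99% of all genes higher and 3.39% lower by 2-fold or more, Acot1 was 4.74-fold lower, Acot2 3.63-fold lower and Cyp4a14 2.24-fold lower. Pdp1 was also lower there, at -1.32 on the log2 scale against the same dim anti-VLA-4 signal, and at 0.00 with normexp. Abcd2 was 5.16-fold higher there, and Bdh2 2.04-fold higher. On the log2 scale Bdh2 fell below 2-fold there, at 0.77 with normexp and at 0.98 when scaled to the median of probes well above background.

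The label of hepatocytes was checked against marker genes of liver cells. The 9 hepatocyte markers on the array summed to a level of 3537 on the anti-VLA-4 array and 3657 on the HFD-IgG array, against 3741 on the standard-diet array, and Cps1 alone was at least 2-fold lower in HFD-IgG over standard diet. Markers of other cells differed as well: 8 of 8 Kupffer cell and macrophage markers, 6 of 8 sinusoidal endothelial markers and 7 of 8 stellate and fibroblast markers were at least 2-fold higher in HFD-IgG over standard diet. The share at least 2-fold higher there was 20.4% of all genes and 4.27% of the brighter ones. Summed levels of the Kupffer list were 45.4 on the anti-VLA-4 array and 60.5 on the HFD-IgG array, against 9.17 on the standard-diet array, those of the endothelial list 32.6, 53.4 and 14.7 in the same order, and those of the stellate list 9.26, 18.7 and 1.71. For 6 of the stellate markers the standard-diet array gave no signal well above background. Of 4 adipocyte markers, 4 were not well above background on the anti-VLA-4 array and 3 on the HFD-IgG array, against 3 on the standard-diet array. The 5 T and NK cell markers summed to 3.61 on the anti-VLA-4 array and 3.38 on the HFD-IgG array, against 3.94 on the standard-diet array, the 4 neutrophil markers to 2.83, 0.99 and 0.58 in that order, and the 4 cholangiocyte markers to 0.23, 0.48 and 0.40. In RNA from many cells, fewer cells of a type and less RNA per cell cannot be told apart, and the part of these other cells in the members' differences was not tested.

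Base composition of the probes also moved with the differences over all genes. The share of genes at least 2-fold higher in HFD-IgG over standard diet was 8.24% for probes of at most 40% purines and 46.9% for probes of over 60%. In 4 classes of rising purine content the median log2 differences of all genes were -0.11, -0.04, 0.10 and 0.86. Those of the brighter genes moved less, at -0.13, -0.12, -0.10 and 0.006. The members' probes held 38% to 67% purines, with 47% for Ehhadh and 43% for the brighter Cpt1b probe. The members' medians in the same 4 classes were -0.28, -0.43, -0.20 and -0.25, for 3, 21, 12 and 1 members, and the part of purine content in them was not tested.

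**Figure D4:**
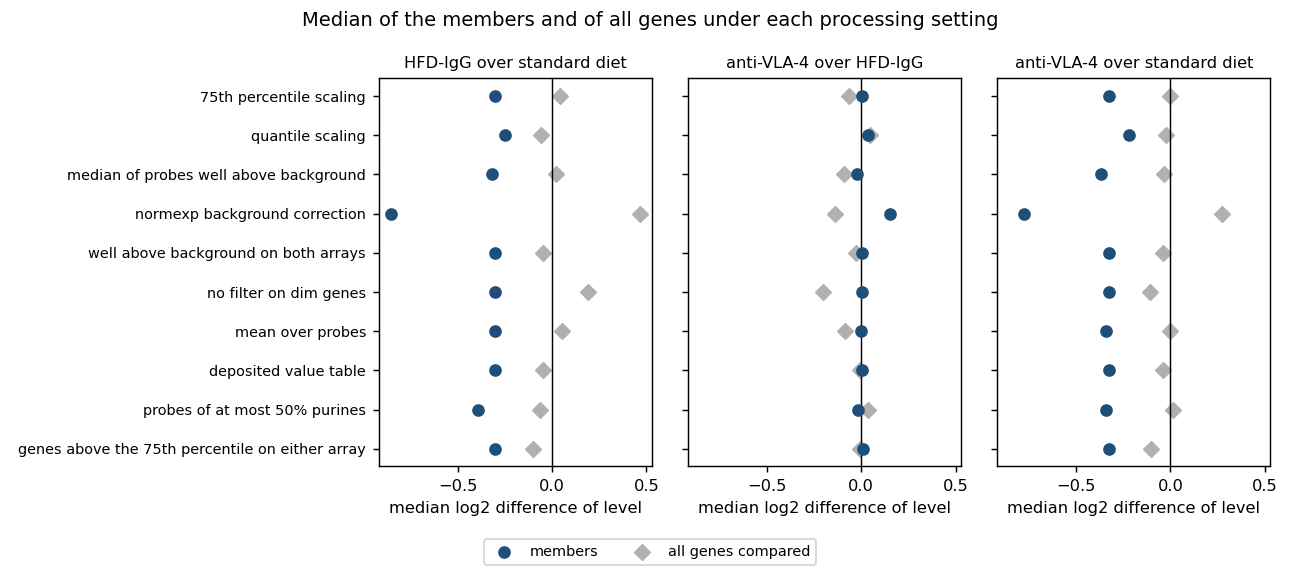
Median log2 difference of the members and of all genes compared, under each processing alternative, in HFD-IgG over standard diet, anti-VLA-4 over HFD-IgG and anti-VLA-4 over standard diet. The members' median lies below 0 in every alternative shown for the comparisons with standard diet, -0.85 at the lowest with normexp in HFD-IgG over standard diet, and close to 0 or, with normexp, above it in anti-VLA-4 over HFD-IgG.

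Promoters were searched for the hexamer AGGTCA on both strands, which PPAR-alpha and other nuclear receptors read, and for the direct repeat of AGGNCA with 1 base between its copies, where N is any base. The RefSeq table on build GRCm38.p6 held a window for 31 of the 37 members, 250 bases before to 50 bases after the start of the gene, 300 in all. The hexamer was found in 3 of 31, Cpt1a, Acadvl and Acadm, which is 9.68%, against 18.1% of the 27025 genes with windows. The repeat was found in 0 of 31 members and in 0.451% of genes. In Ehhadh neither string lies within this window. Ehhadh is printed as the 250 bases before its start at chr16:21787835-21788084 (minus strand), and 60-base stretches are printed around the hexamer, in capitals, of Cpt1a at chr19:3323180-3323239 (plus strand), Acadm at chr3:153944834-153944893 (minus strand) and Acadvl at chr11:70015483-70015542 (minus strand), so that the letters can be seen beside the differences of -2.13, -0.54, -0.48 and -0.43 in HFD-IgG over standard diet.
Ehhadh: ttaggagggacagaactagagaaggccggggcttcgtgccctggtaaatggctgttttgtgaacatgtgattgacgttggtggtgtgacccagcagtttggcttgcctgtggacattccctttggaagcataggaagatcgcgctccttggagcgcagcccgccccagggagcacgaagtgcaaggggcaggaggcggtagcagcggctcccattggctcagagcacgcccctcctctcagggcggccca
Cpt1a: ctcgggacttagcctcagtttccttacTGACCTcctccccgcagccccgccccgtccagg
Acadm: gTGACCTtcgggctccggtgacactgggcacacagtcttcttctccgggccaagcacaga
Acadvl: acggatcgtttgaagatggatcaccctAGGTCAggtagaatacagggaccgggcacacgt
The genes with the hexamer did not hold the largest difference, and a match or its absence in this window describes the letters alone.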

How the data were processed

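Per the submitters' processing notes, the authors' spot intensities came from Agilent Feature Extraction 11.0.1.1. Background subtraction and detrending were applied to every array, per the file headers, and spot flags, also named there, are other values. In the deposited table the unit is a linear ratio. Its 23206 rows equal the processed signal over the array's 75th percentile (largest relative deviation 2.0e-08), and its column medians are 0.81 for anti-VLA-4, 0.80 for HFD-IgG and 0.79 for standard diet.

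The 75th percentile over non-control spots was 514 for anti-VLA-4, 500.3 for HFD-IgG and 574 for standard diet, and 62.4%, 66.5% and 57.3% of spots were well above background in the same order. Levels and log2 differences were computed with Python 3.11.15, numpy 2.4.6, pandas 2.3.3 and scipy 1.17.1, and plotted with matplotlib 3.10.9. Normexp correction (offset 50) and quantile scaling used limma 3.58.1 in R 4.3.3. Quantile scaling took the processed signals, while normexp took the raw mean spot signals with their local background. The normexp values therefore also lack the detrending of the scanner software. Spots of a probe were averaged, and a gene took its brightest probe. Of 39429 probes, 26055 (66.1%) were named through a RefSeq accession. Genes entered a comparison if 1 of its arrays or more gave a signal well above background, and a dim array gives a bound. With 1 array per group no test was made. A 2-fold threshold was counted. The steps were tested on simulated data.

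The named genes were all 37 members and, of the wider lists, up to 3 a list and comparison that were at least 2-fold different. Some genes of the wider lists are not reported here. Positions of array probes are on mm9, per the file headers, and promoter windows are RefSeq's on GRCm38.p6. Alternatives were other scalings, background correction, filters, probe rules and the deposited table. Members and lists were chosen with earlier results of these data known. Protein sequences were not used here.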

Additional observations from a re-analysis of the deposited data

How the results depend on the processing

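Counts and medians of the members moved with some alternatives, and the members' median in anti-VLA-4 over HFD-IgG, which is close to 0, changed sign in 3 of them. With normexp background correction, 1 member was at least 2-fold higher and 14 lower in HFD-IgG over standard diet, with a median of -0.85 where the median of all genes was 0.46, and 6 were lower in anti-VLA-4 over standard diet, with a median of -0.78 where that of all genes was 0.27. Shares of the brighter genes alone were not taken with normexp, and the cause of the shift was not tested. At a 1.5-fold threshold, 6 members were lower in HFD-IgG over standard diet, 1 higher in anti-VLA-4 over HFD-IgG, with 8 lower in anti-VLA-4 over standard diet. With quantile scaling 1 was at least 2-fold higher in anti-VLA-4 over HFD-IgG. Restricted to genes with a level above 1 on either array, which leaves fewer genes, 1 was lower in HFD-IgG over standard diet and 0 higher in anti-VLA-4 over standard diet. The median in anti-VLA-4 over HFD-IgG became -0.022 when scaled to the median of probes well above background, -0.0034 with the mean over probes and -0.016 with probes of at most 50% purines, beside 0.0032. The last 2 restrictions, to bright genes and to probes of few purines, were chosen after seeing the data. Over all genes, quantile scaling gave 11.1% higher and 12.2% lower in HFD-IgG over standard diet and 10.9% and 9.15% in anti-VLA-4 over HFD-IgG, with 5.68% and 4.24% in anti-VLA-4 over standard diet. In the same order normexp gave 40.4% and 3.93%, 0.302% and 0.667%, and 30.1% and 2.08%. Signs held in 4 scalings for 30 of 37 members in each comparison with standard diet. No paired analysis was possible because each group has 1 array, and for the same reason no replicate could be left out. Signal over background did not limit the members, all of which were well above it.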
